A study of Bombyx mori with 4 samples.

Results

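The heat shock proteins Hsp70 and Hsp90, an Hsp70 cognate, a match to heat shock protein cognate 71 and heat shock transcription factor were followed through knockdown of 4 Polycomb genes of the silkworm, Bombyx mori. These are 5 of the 23229 gene probes of the array, picked by name from probes whose ratios in these same arrays were already known. The ratios that chose them are therefore described here without a test. All 5 were measured on all 4 arrays, meaning that the brighter channel was at least 400 intensity units. Some blank spots passed this limit too, so a measured probe is not always clear of blank spots.

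The cells were BmN4-SID1, a line derived from silkworm ovary that takes up double-stranded RNA from its medium. Double-stranded RNA against BmSCE, BmESC, BmPHO or BmSCM was added, and the cells were harvested on day 7. The reference on every array was the same line given double-stranded RNA against EGFP, a green fluorescent protein gene, also for 7 days. Each knockdown had 1 array, hybridized with RNA pooled from 3 experiments, with Cy5 for the knockdown sample and Cy3 for the EGFP RNAi sample. No array had the dyes exchanged, so a dye effect of a probe and an effect of the knockdown cannot be told apart within an array. With 1 array there is no spread between replicates and no p-value. Because all 4 ratios were taken against EGFP RNAi, they share that control. In Drosophila, SCE is the histone H2A ubiquitin ligase of Polycomb repressive complex 1, ESC is a subunit of the complex that methylates histone H3, PHO is a DNA-binding protein that helps to recruit both, and SCM is a protein associated with the first complex.

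Hsp70 and Hsp90 are ATP-driven chaperones. Hsp70 binds unfolded stretches of proteins together with J-domain partners and exchange factors, and Hsp90 takes over late folding of kinases, receptors and other clients. Heat shock transcription factor binds heat shock elements in the promoters of chaperone genes, and in resting cells chaperones bind the factor and keep it inactive. Cognate members of the Hsp70 family are made in cells that are not stressed. Much of the control of the factor acts on its trimerization and DNA binding, which an RNA measurement does not read.

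The chaperone probes and the transcription factor did not move as one group. In BmESC RNAi, 3 chaperone probes were far below the control, while the probe of the factor was as dim as many blank spots in both channels. In BmPHO RNAi and BmSCM RNAi, the factor and the match to cognate 71 were far above the control. None of the chaperone probes among these 5 was more than 2-fold below the control there. The Hsp70 cognate in BmSCM RNAi, at -0.996, was however past 2-fold under 7 of 9 other ways of processing. In BmSCE RNAi, Hsp90 and the Hsp70 cognate lay just past 2-fold below the control. Of 9 other ways of processing, 2 ended that call for Hsp90. The plot of the 5 log2 ratios shows these 3 patterns.

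**Figure D1:**
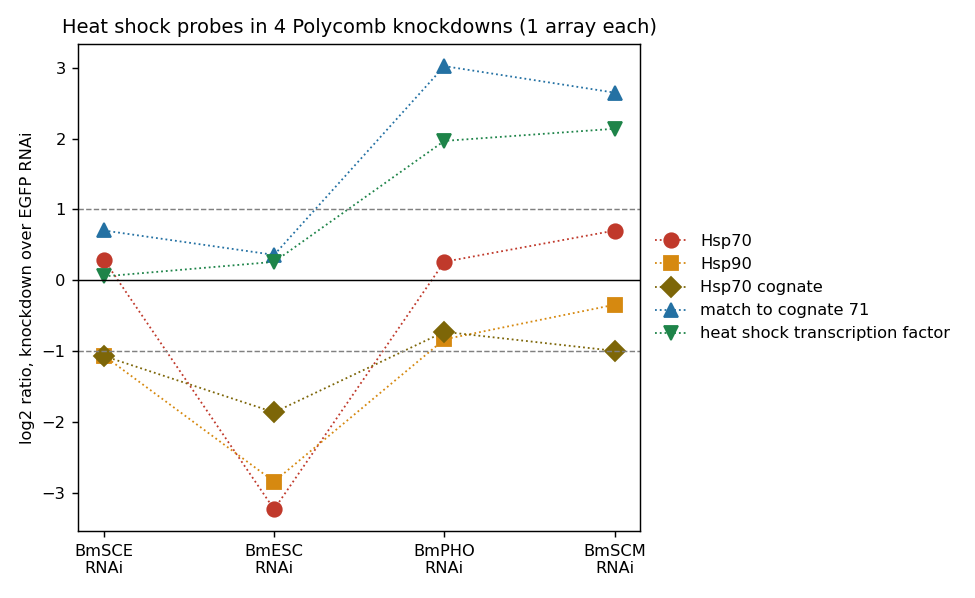
The vertical axis is the log2 ratio of knockdown over EGFP RNAi and the horizontal axis gives the 4 knockdowns, with 1 array each and no error bar. Solid line, no change; dashed lines, 2-fold; dotted lines only join the points of a probe. Hsp70 (-3.23) and Hsp90 (-2.84) are lowest in BmESC RNAi, and the match to cognate 71 (3.02 and 2.65) and the transcription factor (1.97 and 2.14) are highest in BmPHO RNAi and BmSCM RNAi.

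Past 2-fold, 0 of the 5 probes rose and 2 fell in BmSCE RNAi, where 2.43% of all 7833 measured gene probes rose and 1.1% fell. In BmESC RNAi 0 rose and 3 fell, against 4.46% risen and 3.25% fallen among 9869 probes. In BmPHO RNAi 2 rose and 0 fell, against 11.8% and 7.82% of 7434 probes. In BmSCM RNAi 2 rose and 0 fell, against 9.46% and 6.29% of 8310 probes. The probes were chosen on these ratios, so nothing is read from the difference between their counts and the background.

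Across all gene probes the 4 arrays had SDs of the log2 ratio of 0.45 to 0.83, widest in BmPHO RNAi. Spots printed 49 times with the same silkworm control probe varied within an array by an SD of 0.07 to 0.42, with a median of 0.10 over 5 such probes, which covers spot-to-spot error only. GAPDH, a glycolytic enzyme often used as a reference, had log2 ratios of 0.77 (BmSCE), -0.12 (BmESC), 0.12 (BmPHO) and 0.22 (BmSCM RNAi). The match to extra sex combs, the gene targeted by BmESC RNAi, was at -2.61 there and at 0.13, -0.33 and -0.68 elsewhere, in the direction of its label. Of the germline markers, Piwi and aubergine were measured on all arrays. Of probes matched by word to other cell types, 6 to 10 of 28 fat body, 4 or 5 of 14 haemocyte, 4 or 5 of 10 silk gland and 12 to 16 of 31 muscle probes were measured. Those measured included lipophorin receptors, fibroinase and matches to Myosin-5A and Myosin-9, so the counts do not give the share of true markers present. Vitellogenin, storage proteins and fibroin heavy and light chain were not measured, while apolipophorin-3 and tropomyosin were. Some prophenoloxidase probes, a match to fibroin P25 and a match to an apolipophorins precursor were also measured on all arrays. The genes not measured therefore do not show that markers of other cell types were absent.

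Hsp70 (sw22585) differed most between knockdowns. The knockdown channel read 41458 in BmSCE RNAi, 5664 in BmESC RNAi, 29961 in BmPHO RNAi and 35159 in BmSCM RNAi. On the same arrays the EGFP RNAi channel read 27024, 40366, 26364 and 23617. The BmESC sample thus stood alone below the other 3 knockdowns, which were all brighter than their control channels. After loess normalization the log2 ratios were 0.29, -3.23, 0.26 and 0.70, so that Hsp70 was 9.40-fold lower in BmESC RNAi and within 2-fold of the control in the other knockdowns. In BmESC RNAi it was the 2nd lowest of 9869 measured probes. Its range over the knockdowns, 3.93 log2 units, was the 6th widest of 6491 probes measured on all arrays.

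The EGFP RNAi channel was not level over the arrays for this probe. After normalization to a common scale it was 15.46 (log2) on the BmESC array and 14.57 to 14.80 on the others. The SD of that channel over 4 hybridizations was 0.40, where 500 probes of like level had a median of 0.13 and a 95th percentile of 0.28. Set against the mean of the 4 EGFP RNAi channels, Hsp70 in BmESC RNAi was at -2.65 in place of -3.23, and the other knockdowns were at 0.21, 0.08 and 0.39. What moved the control channel was not tested.

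A second probe for the same silkworm gene (sw22145, gene number 692822) was not among the 5. Its knockdown channel read 5117, 1030, 5074 and 4101 and its EGFP RNAi channel 4468, 4129, 3913 and 3796, in the order BmSCE, BmESC, BmPHO and BmSCM. Here too the BmESC sample alone was low. Its log2 ratios were -0.03, -2.39, 0.38 and -0.03, and its control channel was level, with an SD of 0.01 over the 4 hybridizations. The fall in BmESC RNAi was thus present in both probes with this gene number on 1 array. A further probe annotated to the same Hsp70 protein, but without a gene number (sw04220), was at -0.08 there. Its channels were dim, at 670 for the knockdown and 567 for the control, and it was not measured in the other knockdowns. On that array 100 of 382 blank or empty spots passed the limit for a measured probe, so this ratio does not show an unchanged level. The first and second probes are measurements of 1 RNA sample and not replicates of the knockdown.

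Hsp90 (sw01900), the chaperone of kinases and receptors, was below the control on every array. Its knockdown channel read 5691 in BmSCE RNAi, 2424 in BmESC RNAi, 7041 in BmPHO RNAi and 7327 in BmSCM RNAi, and the control channel 10047, 13327, 12910 and 9118. The BmESC sample was again the lowest, and no knockdown channel reached any control channel in these values. The log2 ratios were -1.06, -2.84, -0.83 and -0.35, a 7.17-fold reduction in BmESC RNAi and a 2.09-fold reduction in BmSCE RNAi. It ranked 3rd lowest in BmESC RNAi, next to Hsp70, and 55th lowest of 7833 in BmSCE RNAi. Of 9 other ways of processing that keep EGFP RNAi as the reference, 2 ended the 2-fold call in BmSCE RNAi, with values down in size to -0.88. Set against the mean of the other 3 arrays, which changes the reference, the value turned to 0.28. The control channel had an SD of 0.30 over the hybridizations, past the 95th percentile of 0.29 for probes of like level, and against the mean control channel the 4 values were -1.36, -2.56, -0.59 and -0.57.

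In the RefSeq gene table of silkworm assembly ASM3026992v2, Hsp90 and Hsp70 are on the same chromosome with 2 genes between them, LOC733093, which carries the synonym BmHsp70, and LOC101745500. The nearest genes on either side with a measured probe and a gene number were LOC732941, 10 genes before Hsp90, and LOC733012, 11 genes after it in the same count. LOC732941 had log2 ratios of -0.20, -0.64, -0.90 and -0.66. LOC733012 had -0.69, -0.41, 0.09 and -0.14. Neither passed 2-fold in BmESC RNAi, where the pair of chaperone genes was lowest.

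The Hsp70 cognate (sw08198), for which RefSeq gives the synonym grp78, belongs by that name to the Hsp70 proteins of the endoplasmic reticulum. Its knockdown channel read 10852, 6972, 9247 and 7576 and the control channel 18777, 19308, 15845 and 15174, in the same order of knockdowns. Every knockdown channel was below every control channel. The log2 ratios were -1.07, -1.86, -0.73 and -0.996, the lowest again in BmESC RNAi, where it ranked 34th of 9869 from the bottom. In BmSCM RNAi the fold was 1.99, just inside the threshold, and 7 of those 9 other ways of processing put it past 2-fold. Its control channel had the lowest SD of the 5, 0.18. Of the 5 probes it had the narrowest range, 1.14 log2 units.

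The match to heat shock protein cognate 71 (sw12462) is a probe named for a protein of another species. Its levels ran the other way, with knockdown channels of 5794, 5164, 12210 and 12410 and control channels of 3059, 3091, 1508 and 1839. The BmPHO and BmSCM samples were both above the other knockdowns, and every knockdown channel was above every control channel. The log2 ratios were 0.70, 0.36, 3.02 and 2.65, that is 8.13-fold higher in BmPHO RNAi and 6.27-fold higher in BmSCM RNAi. It ranked 34th highest of 7434 probes and 42nd highest of 8310 on those arrays.

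Part of that ratio lay in the control channel. On the common scale the EGFP RNAi channel of this probe was at 11.54 and 11.70 on the BmSCE and BmESC arrays and at 10.69 and 11.02 on the BmPHO and BmSCM arrays. Its SD of 0.46 was past the 95th percentile of 0.34 for like probes. Against the mean control channel the knockdowns were at 1.01, 0.82, 2.48 and 2.43, so the order of the pairs held and the size was smaller in BmPHO and BmSCM RNAi.

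A second probe matched the same protein (sw09458), without being one of the 5. Its log2 ratios were 0.67, 0.63, 1.25 and 0.90, with knockdown channels of 3371, 3649, 3533 and 2850 and control channels of 1831, 1801, 1440 and 1252. It passed 2-fold in BmPHO RNAi alone. The rises of the first match had no like size in the second. The log2 ratios were 3.02 against 1.25 in BmPHO RNAi and 2.65 against 0.90 in BmSCM RNAi. A silkworm gene number is given for neither probe, and whether they read 1 transcript or 2 related ones was not tested.

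The plot of both channels shows where the ratios came from. For Hsp70, Hsp90 and the cognate the knockdown channel dropped on the BmESC array while the control channel was there at its highest. For the match to cognate 71 the control channel was lower on the arrays where the knockdown channel was higher.

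**Figure D2:**
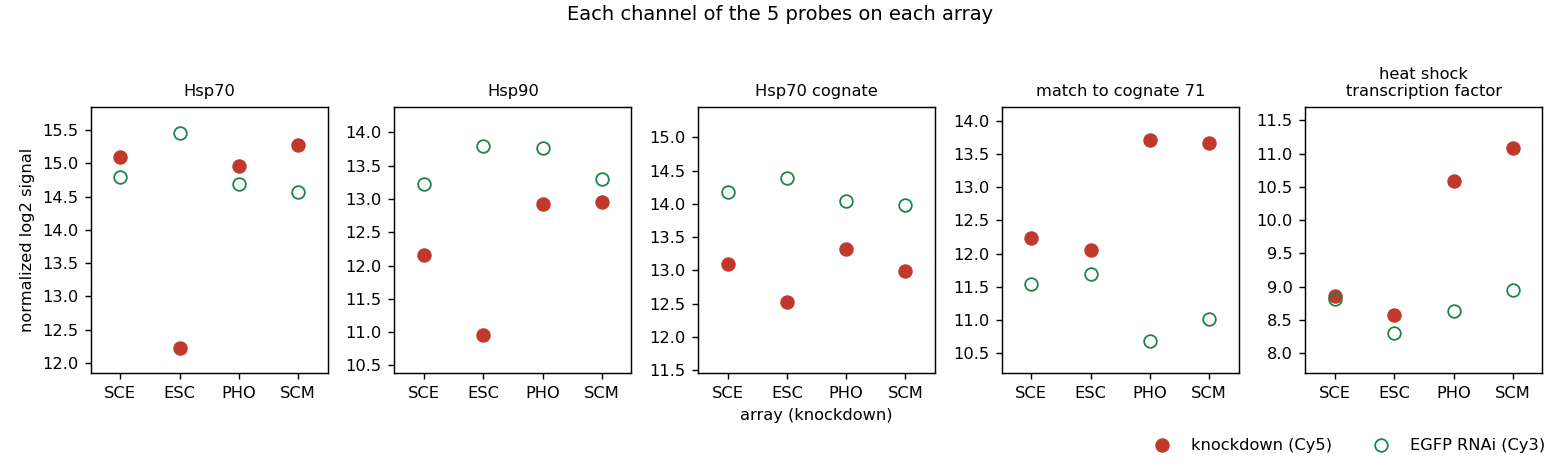
Each panel is 1 probe; the vertical axis is the signal after loess within arrays and quantile scaling of mean brightness between arrays (log2 units, 4 units in every panel), the horizontal axis the 4 arrays named by knockdown. Filled points, knockdown (Cy5); open points, EGFP RNAi (Cy3); 1 spot each. The open points of Hsp70 span 0.89 and those of the match to cognate 71 span 1.01 log2 units, although the control RNA had 1 treatment.

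Heat shock transcription factor activates chaperone genes. The array's own annotation finds no matching protein for its probe (sw16651), and the name comes from the gene lists published with the study. It was a dim probe. The knockdown channel read 487 in BmSCE RNAi, 557 in BmESC RNAi, 1424 in BmPHO RNAi and 2411 in BmSCM RNAi, and the control channel 397, 378, 321 and 397. The BmPHO and BmSCM samples were above every other value, and the control channel stayed under 400 on all arrays. The log2 ratios were 0.06, 0.26, 1.97 and 2.14, or 3.91-fold higher in BmPHO RNAi and 4.40-fold higher in BmSCM RNAi, ranking 168th highest of 7434 and 112th highest of 8310. Its control channel had an SD of 0.27, close to the median of 0.26 for like probes.

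The control level of this probe was within what spots without a gene probe can give. Of 382 blank or empty spots, 63, 90, 39 and 26 were at least as bright as the factor in the control channel of the BmSCE, BmESC, BmPHO and BmSCM arrays. In the knockdown channel the numbers were 34, 49, 1 and 1. The factor therefore stood clear of blank spots in the BmPHO and BmSCM knockdown channels and not in the control channels, which leaves the size of its ratio uncertain. In BmSCE RNAi and BmESC RNAi it stood clear in neither channel, so its ratios near 0 there do not show that its level was unchanged. A requirement of 400 in both channels would remove it from all 4 arrays.

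On the BmPHO and BmSCM arrays another set of spots moved in the same direction. The 384 spots for yeast intergenic spike RNA had median log2 ratios of 1.24 on the BmSCE, 1.16 on the BmESC, 4.01 on the BmPHO and 3.27 on the BmSCM array, which is 2.44 higher on the latter pair. Correlations of the ratios over 6491 probes, a description of arrays that share the control, were 0.56 to 0.63 for 5 pairs of arrays and 0.86 for BmPHO with BmSCM. The part of either in the ratios of the factor and of the match to cognate 71 was not tested.

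Set against the chaperone probes, the factor exceeded their median log2 ratio by 0.44 in BmSCE RNAi, 2.61 in BmESC RNAi, 2.20 in BmPHO RNAi and 1.96 in BmSCM RNAi. Whether the factor acts on each of these genes was not tested. These differences carry the uncertain ratio of the factor, so their sizes are not compared with each other. In BmESC RNAi the chaperone median was -2.35 and the factor was at 0.26. In BmPHO RNAi the median was -0.23 and in BmSCM RNAi 0.18, with the factor near 2 log2 units above the control.

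By single chaperones, the factor was 3.49 above Hsp70, 3.10 above Hsp90 and 2.12 above the cognate in BmESC RNAi. In BmPHO RNAi it was 1.71, 2.80 and 2.70 above the same probes, and in BmSCM RNAi 1.44, 2.48 and 3.13. Against the match to cognate 71 the difference was negative in all 4 knockdowns, at -0.65, -0.10, -1.06 and -0.51. This was the only chaperone probe of the 4 with that sign on all 4 arrays. In BmSCE RNAi the difference from Hsp70 was negative too, at -0.24. The factor was clear of blank spots in neither channel in BmSCE RNAi and BmESC RNAi, so the order of the probes there is uncertain. Set against the mean of the other 3 arrays, which changes the reference, the factor was above the match to cognate 71 in BmESC RNAi and BmSCM RNAi.

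**Figure D3:**
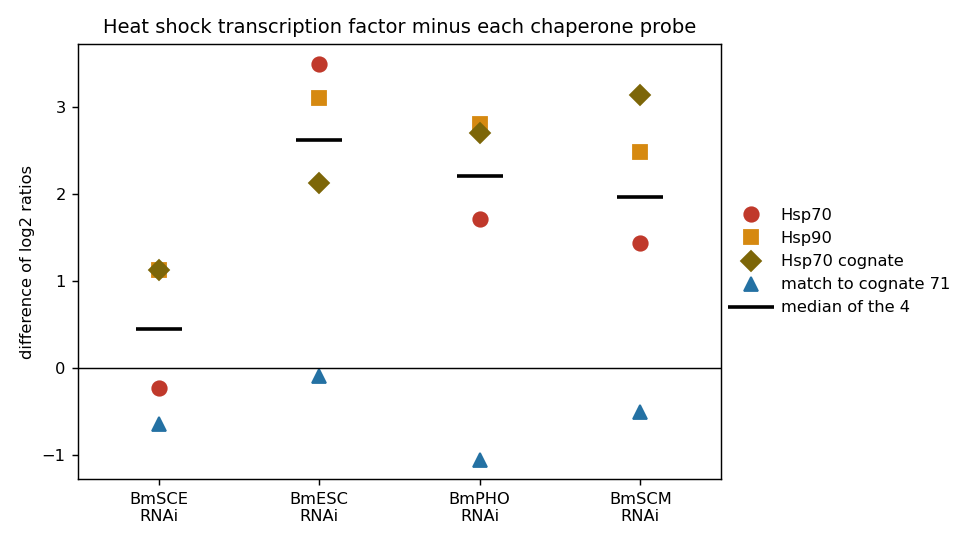
The vertical axis is the log2 ratio of heat shock transcription factor minus that of each chaperone probe, the horizontal axis the 4 knockdowns, with 1 array each; symbols, the 4 chaperone probes; bars, the difference from their median (0.44, 2.61, 2.20 and 1.96). Points above 0 are chaperones whose ratio was lower than that of the factor, 2, 3, 3 and 3 of 4. The match to cognate 71 is below 0 throughout, but in BmSCE RNAi and BmESC RNAi the factor was not clear of blank spots, so the order there is uncertain.

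Each array can also be set against the mean of the other 3, which removes what the knockdowns share. Hsp70 was then at 1.05, -3.65, 1.01 and 1.59 and Hsp90 at 0.28, -2.09, 0.58 and 1.23. The cognate was at 0.13, -0.93, 0.58 and 0.22. These values sum to 0 for each probe, so 1 low array raises the others. The cognate, for example, was below EGFP RNAi on all 4 arrays and is negative here for BmESC alone. The match to cognate 71 was at -1.31, -1.77, 1.79 and 1.29 and the factor at -1.40, -1.13, 1.15 and 1.38, a split between the BmSCE and BmESC arrays on one side and the BmPHO and BmSCM arrays on the other.

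The wider chaperone system was taken from 68 other probes found by words in their annotation, in 6 roles. In BmSCE RNAi 51 were measured, 6 rose past 2-fold (11.8%) and 1 fell (1.96%). In BmESC RNAi 0 of 54 rose and 9 fell (16.7%). These shares stand beside 2.43% and 1.1%, and 4.46% and 3.25%, of all probes. In BmPHO RNAi 6 of 48 rose (12.5%, beside 11.8% of all probes) and 1 fell (2.08%, beside 7.82%). In BmSCM RNAi 1 of 49 rose (2.04%, beside 9.46%) and 3 fell (6.12%, beside 6.29%). The median log2 ratios of the 68 were -0.16, -0.40, -0.10 and -0.29, against 0.02, 0.02, 0.05 and 0.07 for all probes.

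Within the Hsp70 family, 8 further probes were found and 5 to 7 measured. In BmESC RNAi 2 fell, the second Hsp70 probe and a match to a distant Hsp70 relative of the dog (sw00221, -1.10). A constitutive member, Hsc70-4 (sw22917), was at -0.26 in BmESC RNAi and fell in BmSCM RNAi, at -1.19, as did a match to another Hsp70 relative of the zebrafish (sw14679, -1.03). With Hsc70-4 at -0.26 and the second match to cognate 71 (sw09458) at 0.63, the low Hsp70 values of BmESC RNAi were not shared by every probe of the family. The probe sw04220, annotated to the same Hsp70 protein, was at -0.08 but too dim for its ratio to show an unchanged level.

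Of 3 further Hsp90 family probes 2 were measured. The match to endoplasmin (sw09820), the Hsp90 of the endoplasmic reticulum, fell in BmESC RNAi, at -1.48, alongside the grp78-type cognate of the same compartment. The match to TRAP1 (sw08767), the mitochondrial Hsp90, was within 2-fold in all 4 knockdowns.

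Co-chaperones were mostly within 2-fold. Of 32 Hsp70 co-chaperone probes, 24 to 26 were measured. DnaJ homolog subfamily A member 1 (sw15970), a J-domain protein that delivers substrates to Hsp70, fell in BmESC RNAi (-1.35) and lay at the threshold in BmSCE RNAi (-1.0). A DnaJ-like protein (sw03036) rose in BmPHO RNAi, at 1.03. Of 9 Hsp90 co-chaperone probes, Hop (sw04229), which bridges Hsp70 and Hsp90, fell in BmESC RNAi at -1.13. It was dim, with a knockdown channel of 293 and a control channel of 525. With 400 required in both channels the count of this role fallen there went from 1 to 0. In BmPHO RNAi the match to FKBP59 (sw07876, 1.00), an immunophilin, and a match to suppressor of G2 allele of SKP1 (sw16611, 1.05) lay just past 2-fold. That count of 2 became 1 with the authors' values, median centring and print-block loess, and 0 with a floor of 200, against the mean control channel and against the other 3 arrays. For Hsp60 and Hsp10, the mitochondrial chaperonins, the Hsp10 match (sw12116) fell in BmESC RNAi, at -1.25.

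Small heat shock proteins, which hold unfolded proteins without ATP, gave the largest share of calls of the 6 roles in BmSCE RNAi. There 6 of 11 measured probes rose (54.5%, beside 2.43% of all probes) and 0 fell (beside 1.1%), with a median log2 ratio of 1.04. Of the 6, Hsp20.4 and Hsp20.8 were counted as measured there only through the brighter knockdown channel (750 against 213, and 769 against 318). On this array they could thus enter the count only by being high. Hsp20.8 was also measured in BmPHO RNAi (0.25) and BmSCM RNAi (0.22), within 2-fold. With 400 required in both channels 4 rose and the median was 0.63, and with no filter on dim spots 6 rose and the median was 0.50. Among them were Hsp20.4 (sw18670, 1.57), Hsp23.7 (sw13175, 1.52), Hsp20.8 (sw18898, 1.04) and a second match to hsp20.1 (sw15945, 1.79). A match to hsp20.8 (sw03800, 1.53) and one to a small heat shock protein of the diamondback moth (sw09447, 1.21) were the others. Hsp90 and the Hsp70 cognate were below the control on that same array, at -1.06 and -1.07.

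In BmESC RNAi 0 of 10 small heat shock probes rose and 3 fell, with a median of -0.68, where 3.25% of all probes fell. The 3 fallen were Hsp19.9 (sw00199, -1.32), Hsp20.1 (sw03679, -1.61) and Hsp21.4 (sw01265, -1.50). Hsp20.4 (knockdown channel 88, control channel 290) and Hsp20.8 (205 and 389) were not measured on the BmESC array, being under 400 in both channels. With no filter on dim spots 5 fell there and the median stayed at -0.68. Against the other 3 arrays, which changes the reference, 5 fell and the median was -1.26. Hsp21.4 was at -0.50 in BmSCE RNAi, -1.04 in BmPHO RNAi and -1.02 in BmSCM RNAi, so it was negative on all 4 arrays. In BmPHO RNAi 2 of 9 rose, sw15945 (1.20) and sw03800 (1.69), and in BmSCM RNAi 1 of 10 rose, sw03800 (1.19). These are 22.2% and 10.0%, beside 11.8% and 9.46% of all probes. The count in BmPHO RNAi became 1 with the authors' values, print-block loess and the mean control channel, and 0 against the other 3 arrays, where the count in BmSCM RNAi was also 0; against the mean control channel the latter was 2. Some of these probes are named for one protein, and related small heat shock genes may share signal.

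**Figure D4:**
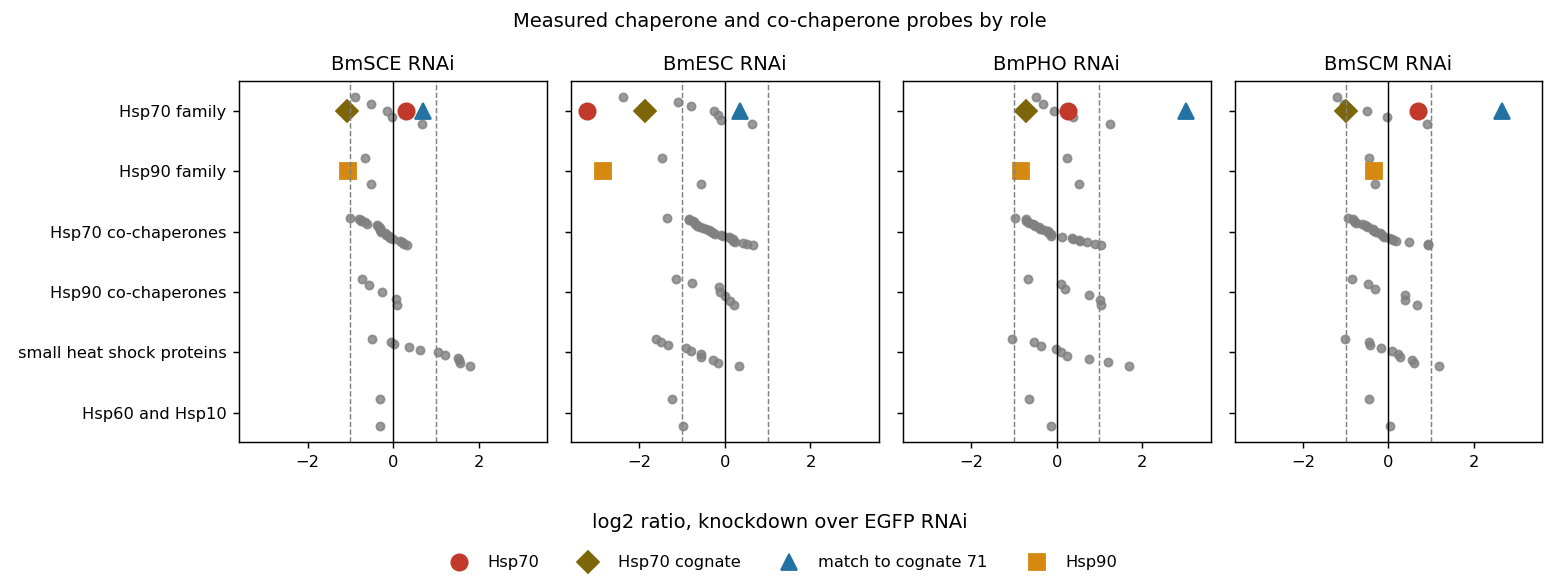
Each panel is 1 knockdown with 1 array; the horizontal axis is the log2 ratio of knockdown over EGFP RNAi and the rows are roles. Grey points, measured probes of the 6 lists; coloured symbols, the 4 chaperone probes described above; dashed lines, 2-fold. Small heat shock proteins lie to the right in BmSCE RNAi (median 1.04, or 0.63 with 400 required in both channels) and to the left in BmESC RNAi (median -0.68), where Hsp70 and Hsp90 are farthest left.

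The probes nearest to each of the 5 were found by the root mean square difference of the 4 log2 ratios, among 4854 or 4855 annotated probes measured on all arrays. Nearest to Hsp70 was its own second probe, at 0.58 log2 units, followed by a match to a flesh fly protein (sw10690, 0.76) and a match to Gag (sw17933, 0.81). Nearest to Hsp90 were matches to a solute carrier of family 6 (sw03144, 0.35), a retrotransposon protein (sw10449, 0.38) and a piggyBac-derived element (sw19579, 0.43). The first and second of these were the 5th and 4th lowest probes in BmESC RNAi, at -2.66 and -2.79.

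Nearest to the Hsp70 cognate was proteasome 26S non-ATPase subunit 4 (sw13233, 0.19), a subunit that binds ubiquitin chains, with ratios of -0.91, -1.97, -0.91 and -0.74. A reverse transcriptase (sw20207, 0.20) and an unnamed protein (sw17064, 0.31) followed. The match to cognate 71 lay nearest to ORF1 (sw18514, 0.22), a match to dicer-2 (sw09354, 0.30), the nuclease of the RNA interference pathway, and a match to NMDA receptor regulated 1 (sw11983, 0.30). The transcription factor lay nearest to a match to reverse transcriptase (sw10411, 0.16) and to 2 matches to uncharacterized proteins (sw22400, 0.18, and sw06348, 0.18). These likenesses rest on 4 arrays and are a description.

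The ranges over the 9 other ways of processing that keep EGFP RNAi as the reference are drawn in the plot of settings. Hsp70 in BmESC RNAi kept between -3.63 and -2.65 and Hsp90 between -3.11 and -2.56. The match to cognate 71 was at 2.48 to 3.73 in BmPHO RNAi and 2.29 to 3.0 in BmSCM RNAi. Hsp70 in BmSCM RNAi, reported at 0.70, ranged from 0.11 to 0.76. The factor was at 1.90 to 2.17 and 2.14 to 2.48, over the 8 settings that kept it. The sign turned for Hsp70 in BmPHO RNAi (-0.01 with loess within print blocks) and for the factor in BmESC RNAi (-0.10 against the mean control channel), so neither has a direction.

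**Figure D5:**
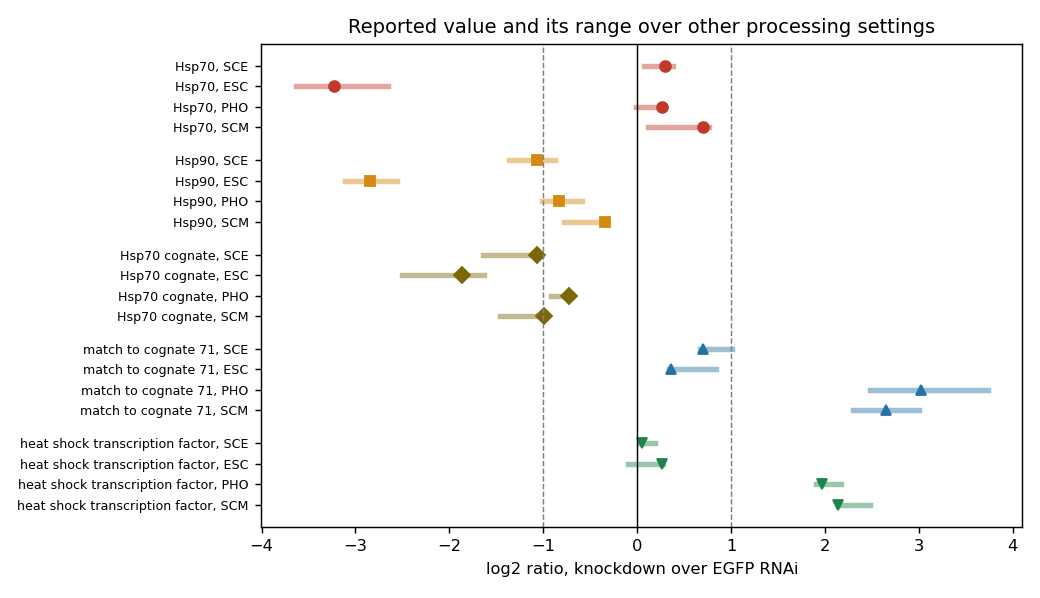
The horizontal axis is the log2 ratio of knockdown over EGFP RNAi, and each row is 1 probe in 1 knockdown. Symbols, the reported value; bars, the lowest to highest value over 9 other processing settings (8 for the transcription factor) with EGFP RNAi as the reference, which are not errors between replicates; dashed lines, 2-fold. The bars of Hsp70 and Hsp90 in BmESC RNAi end at -2.65 and -2.56, and that of the Hsp70 cognate in BmSCM RNAi reaches -1.46.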

How the data were processed

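Total RNA of BmN4-SID1 cells was hybridized to 4 two-colour oligonucleotide arrays with 24288 spots, 1 array per knockdown. The intensity columns were deposited by the authors with local background subtracted and dyes not yet balanced. The ratio column deposited by the authors holds normalized Cy5 over Cy3, by a method not given in the sources used here, and the log2 values deposited as the series table equal its log2. Intensities were floored at 100, turned into log2 ratios and normalized within each array by loess (span 0.3, 4 iterations; limma 3.58.1, R 4.3.3) over gene probes. Channels on a common scale came from limma's Aquantile step. The loess script was tested on simulated data with known changes placed in bright spots only, so that test does not cover dim probes such as the transcription factor. Tables were made with Python 3.11.15 and pandas 2.3.3. A probe was measured where its deposited flag was passing, which on the values means a brighter channel of at least 400. Of 382 blank or empty spots, 71, 100, 30 and 26 also passed on the BmSCE, BmESC, BmPHO and BmSCM arrays. The number of arrays limits the precision.

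The members, the word lists and the 2-fold counts were chosen with earlier results of these data known, and the word lists were corrected after the matched names had been read. Named were the 5 probes, each list probe past 2-fold on at least 1 array, the 3 probes nearest to each member in pattern, GAPDH and the probe of a targeted gene. Second probes and neighbouring genes were chosen after their values were seen. All 3 members with a silkworm gene number matched the RefSeq table, which was used for names and neighbours alone. Probe sequences of the members were not used here. Alternatives were the authors' ratios, median centring, loess within print blocks or from bright spots, floors of 50 and 200, 400 in both channels, no filter, the mean of the other 3 arrays and, chosen after seeing the data, the mean EGFP RNAi channel.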

Additional observations from a re-analysis of the deposited data

Results flagged for a closer look

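Hsp70 had ratios of opposite sign in 2 knockdowns, at 0.70 in BmSCM RNAi and -3.23 in BmESC RNAi, a difference of 3.93 log2 units. With 1 array per knockdown the difference was not tested. The value in BmSCM RNAi was within 2-fold and ranged from 0.11 to 0.76 over 9 other ways of processing, and the second probe of the gene was at -0.03 there, so a rise in BmSCM RNAi is not shown. In BmESC RNAi the second probe was at -2.39.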

How the results depend on the processing

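Each value rests on 1 array, so no setting speaks to the spread between cultures, and a dim control channel limits the ratio of the transcription factor. No paired analysis was possible because each knockdown has 1 array and the results come from no test. The cause of each shift below was not tested unless named. Requiring 400 in both channels removed the factor, so its difference from the chaperones has no value there, and 1 probe in place of 2 then rose in BmPHO and in BmSCM RNAi. The count of members fallen in BmSCE RNAi went from 2 to 1 with the authors' values and with print-block loess. In BmSCM RNAi it went from 0 to 1 with the authors' values, median centring, print-block loess, floors of 50 and 200, bright-spot loess and the mean control channel, and in BmPHO RNAi from 0 to 1 with median centring. Members risen in BmSCE RNAi went from 0 to 1 against the mean control channel and against the other 3 arrays, and in BmSCM RNAi from 2 to 4 against the other 3 arrays.

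The factor minus the chaperone median in BmPHO RNAi was 2.42 with the authors' values, 2.45 with median centring, 2.38 with print-block loess and 2.44 with bright-spot loess. In BmSCM RNAi it was 2.51, 2.47 and 2.20 with the first, second and last of these and 2.50 against the mean control channel, where BmESC RNAi gave 1.99. Against the other 3 arrays, by construction a different quantity, the 4 knockdowns gave -1.60, 0.80, 0.35 and 0.12. There Hsp90 and the Hsp70 cognate turned sign in BmSCE RNAi, at 0.28 and 0.13.

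List probes fallen in BmSCE RNAi went from 1 to 0 with the authors' values, a floor of 50, bright-spot loess and the other 3 arrays. Those fallen in BmPHO RNAi went from 1 to 2 with median centring, a floor of 200 and no filter, and to 0 against the other 3 arrays. Those fallen in BmSCM RNAi went from 3 to 8 with median centring, 1 with bright-spot loess and 0 against the other 3 arrays. Risen in BmPHO RNAi went from 6 to 3 against the other 3 arrays and the mean control channel. Risen in BmSCM RNAi went from 1 to 2 with the authors' values, median centring, print-block loess and bright-spot loess, to 3 with the mean control channel and to 0 against the other 3 arrays. The list median in BmSCM RNAi, -0.29, became -0.18 with the authors' values, -0.41 with median centring, -0.12 with no filter, -0.18 with bright-spot loess and -0.0083 against the other 3 arrays, where BmPHO RNAi gave 0.25. Bright-spot loess put the median of all probes at 0.11 in BmPHO RNAi and 0.15 in BmSCM RNAi, and the mean control channel put it at 0.11 in BmSCM RNAi. Of all probes called in BmSCM RNAi, 60.0% had risen, 70.7% with bright-spot loess and 71.5% with the mean control channel. Against the other 3 arrays the share went from 68.8% to 42.1% in BmSCE RNAi and from 60.2% to 46.4% in BmPHO RNAi.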
